A study of Mus musculus with 19 samples.

Results

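Tumour necrosis factor, its receptors, the bacterial pattern receptors beside it and the inhibitors that shut their common pathway off were followed in single cells of an injured mouse tendon site. The 9 genes were taken by symbol: Tnf, the TNF receptor genes Tnfrsf1a and Tnfrsf1b, the Toll-like receptor genes Tlr2 and Tlr4, the co-receptor gene Cd14, and the feedback genes Nfkbia, Nfkbiz and Tnfaip3. Each symbol matched 1 gene in the files, and 61 further genes of the pathway were counted beside them. The 19 libraries were made with 10x Genomics 3′ chemistry from cells of mice given a dorsal scald burn and a cut of the Achilles tendon, an injury after which cartilage and bone form at the tendon (heterotopic ossification). There were 4 libraries of day 0, 3 of day 3, 4 of day 7, 4 of day 21, and 4 labelled day 7 from mice given the CD47-activating peptide p7N3 at 10 mg/kg intraperitoneally each day for 3 days before and 3 days after injury, apart from p7N3 replicate 4, whose label names no day. Day 0 carries the same burn label as the other days and is described by the study as tissue from before injury, and no vehicle is named in the labels of the day 7 libraries. The labels name C57 and LysmCre/Tgfb1fx/fx mice for the series and assign neither to a library. LysM-Cre acts in myeloid cells, so a deletion of Tgfb1 in the macrophages of some libraries cannot be told apart from any other difference between libraries. The labels do not say which animals gave each library, so p-values here measure the spread between libraries. In the comparisons with granulocyte-like and dendritic cells, this spread is mostly a value shared between genes.

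TNF is a cytokine that is cut from the cell surface by Adam17 and binds the receptors encoded by Tnfrsf1a, which most cell types carry, and Tnfrsf1b, which is found mainly on leukocytes and endothelium. Toll-like receptors recognise microbial molecules and products of damaged tissue, Tlr2 for lipopeptides and Tlr4, with Cd14 and Ly96, for lipopolysaccharide. Both receptor families activate IkB kinase, which frees NF-kB from its inhibitor. NF-kB then induces the genes of its own brakes: Nfkbia encodes the inhibitor IkBα, Nfkbiz encodes the nuclear protein IkBζ, and Tnfaip3 encodes the ubiquitin-editing enzyme A20. In wounds, neutrophils and blood-derived monocytes are known as early sources of TNF.

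The feedback genes are textbook NF-kB targets, and the bases just before the gene start were searched for letters to which NF-kB is known to bind. Windows were taken from the RefSeq table (GRCm38.p6) for 6 of the 9 genes, 7 windows in all. Entries on a single chromosome were left out of this search of the 9 genes. No window of Tlr4, Cd14 or Nfkbiz was searched. Each window is the 250 bases before the gene start, searched on both strands for GGGNNTTNCC and its reverse complement GGNAANNCCC. The motif was found in 3 of the 6 genes, and in 1350 of all 32851 windows of this length (4.11%). By RefSeq's gene starts it begins 172 bases before the gene start in Tlr2 (chr3:83841609-83841858, minus strand), 29 bases before it in Nfkbia (chr12:55492648-55492897, minus strand) and 12 bases before it in Tnfaip3 (chr10:19015411-19015660, minus strand). The 3 windows are given 5′ to 3′ with the match in capitals, because they are the windows in which the motif was found.
Tlr2: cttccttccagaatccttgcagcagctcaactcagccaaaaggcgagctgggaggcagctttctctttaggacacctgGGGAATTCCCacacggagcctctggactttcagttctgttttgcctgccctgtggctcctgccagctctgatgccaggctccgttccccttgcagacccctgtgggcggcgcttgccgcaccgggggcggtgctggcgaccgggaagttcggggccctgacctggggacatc
Nfkbia: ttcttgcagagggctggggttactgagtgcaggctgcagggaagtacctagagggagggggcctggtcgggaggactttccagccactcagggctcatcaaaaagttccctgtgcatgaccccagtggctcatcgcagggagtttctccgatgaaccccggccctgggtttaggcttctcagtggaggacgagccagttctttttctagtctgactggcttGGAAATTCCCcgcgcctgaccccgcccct
Tnfaip3: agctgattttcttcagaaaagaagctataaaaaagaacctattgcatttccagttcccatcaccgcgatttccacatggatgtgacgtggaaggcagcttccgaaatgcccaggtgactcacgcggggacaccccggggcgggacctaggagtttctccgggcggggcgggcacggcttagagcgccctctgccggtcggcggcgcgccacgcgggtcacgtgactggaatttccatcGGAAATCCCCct
These letters were not in the windows of Tnf, Tnfrsf1a and Tnfrsf1b, nor in the second Tnfaip3 window. In the GENCODE annotation of GRCm38 the gene Tnfaip3 runs from 19000910 to 19015657, so that its match lies inside the gene by that annotation. A match is a description of the sequence and was not tested as a binding site.

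After filtering, 39541 cells remained, with 571 to 3668 per library. Libraries of day 0 held 3019467 to 5383855 UMIs (distinct transcript molecules) and a median of 3414 to 4693 UMIs per cell, against medians of 10288 to 11186 at day 3, and at most 22 cell barcodes were shared by a pair of libraries. Clusters were named from marker genes. The largest classes were monocyte/macrophage-like (14280 cells), stromal-like (11544), tenocyte-like (3453) and endothelial-like (3149), and there were 407 granulocyte-like cells. Levels are CPM, a gene's UMIs in the summed cells of a library divided by all UMIs of those cells and scaled to 1000000. Log2 fold changes (log2FC), 95% confidence intervals and adjusted p-values are from edgeR's quasi-likelihood test with TMM scaling, Benjamini-Hochberg adjusted over all genes tested, and a gene was called at an adjusted p below 0.05. Because of the TMM scaling a log2FC can differ from the ratio of the CPM values.

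Across all cells of the site, every one of the 9 genes was higher at day 3 than at day 0 and lower at day 7 than at day 3. Tnf, the ligand, was at 15.4, 16.2, 10.6 and 7.19 CPM in the day 0 libraries and at 124, 171 and 221 CPM in those of day 3. Day 7 followed with 18.4, 8.90, 17.6 and 23.4 CPM, and day 21 with 7.56, 12.6, 6.66 and 3.63 CPM. All day 3 libraries lay far above those of every other day, with a log2FC from day 0 of 4.21 (95% interval 3.44 to 4.99, adjusted p = 1.18e-08, edgeR).

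The pattern receptors rose with the ligand. Tlr2 went from 19.5, 16.9, 12.8 and 12.9 CPM at day 0 to 201, 185 and 230 CPM at day 3, with a log2FC of 4.13 (3.76 to 4.49, adjusted p = 3.46e-12). Cd14 went from 92.7, 81.5, 48.9 and 41.4 CPM to 516, 400.2 and 672 CPM, with a log2FC of 3.41. Neither gene overlapped between the days. For Tlr4 the groups overlapped on the CPM scale, with 10.5 to 15.6 CPM at day 0 and 12.5 to 15.6 CPM at day 3, and its log2FC of 0.61 (adjusted p = 0.000864) was the smallest of the 9.

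Among the TNF receptors, Tnfrsf1a rose by a log2FC of 0.94 and Tnfrsf1b by 2.10. The feedback genes rose by 1.81 for Nfkbia, 1.16 for Nfkbiz and 2.23 for Tnfaip3, and none of these 5 genes overlapped between the days. The counts were 9 of 9 genes higher at day 3 (35.7% of the 15971 genes tested were called higher) and 9 of 9 lower at day 7 than at day 3 (28.0% of all genes). Their median log2FC from day 0 to day 3 was 2.10, beside 0.003 for all genes. In a sum over the whole site, fewer cells of a type and less RNA per cell cannot be told apart, and monocyte/macrophage-like cells made up 8.0% of the UMIs at day 0 and 47.2% at day 3.

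By day 21 most of the site's levels lay near those of day 0. Against day 7, 1 gene was higher (22.7% of all genes) and 7 were lower (22.9%), the exceptions being Tnfrsf1a, higher with a log2FC of 0.30, and Tlr4, with 0.007 (-0.25 to 0.27). Against day 0, only Tnfrsf1a was called higher (27.1% of all genes): 193 to 209 CPM against 119 to 152 CPM, with a log2FC of 0.72 and no overlap. Tlr4 (-0.37) and Nfkbiz (-0.42) were called lower (23.7%). The other 6 genes were not called, among them Tnf with a log2FC of -0.57 (-1.38 to 0.24) and Nfkbia with -0.09 (-0.39 to 0.22). Against day 0, the call of Tlr4 was lost without day 0 replicate 1 or 2 or day 21 replicate 3 or 4 (adjusted p up to 0.217), and that of Nfkbiz without day 0 replicate 1, 2 or 3 or day 21 replicate 2 or 4 (up to 0.117). Against day 7, Nfkbia was lost without day 7 replicate 3 or 4 or day 21 replicate 2, 3 or 4 (up to 0.0872), Nfkbiz without day 7 replicate 3 or day 21 replicate 4 (up to 0.0631) and Tnfaip3 without day 21 replicate 4 (0.0572).

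**Figure D1:**
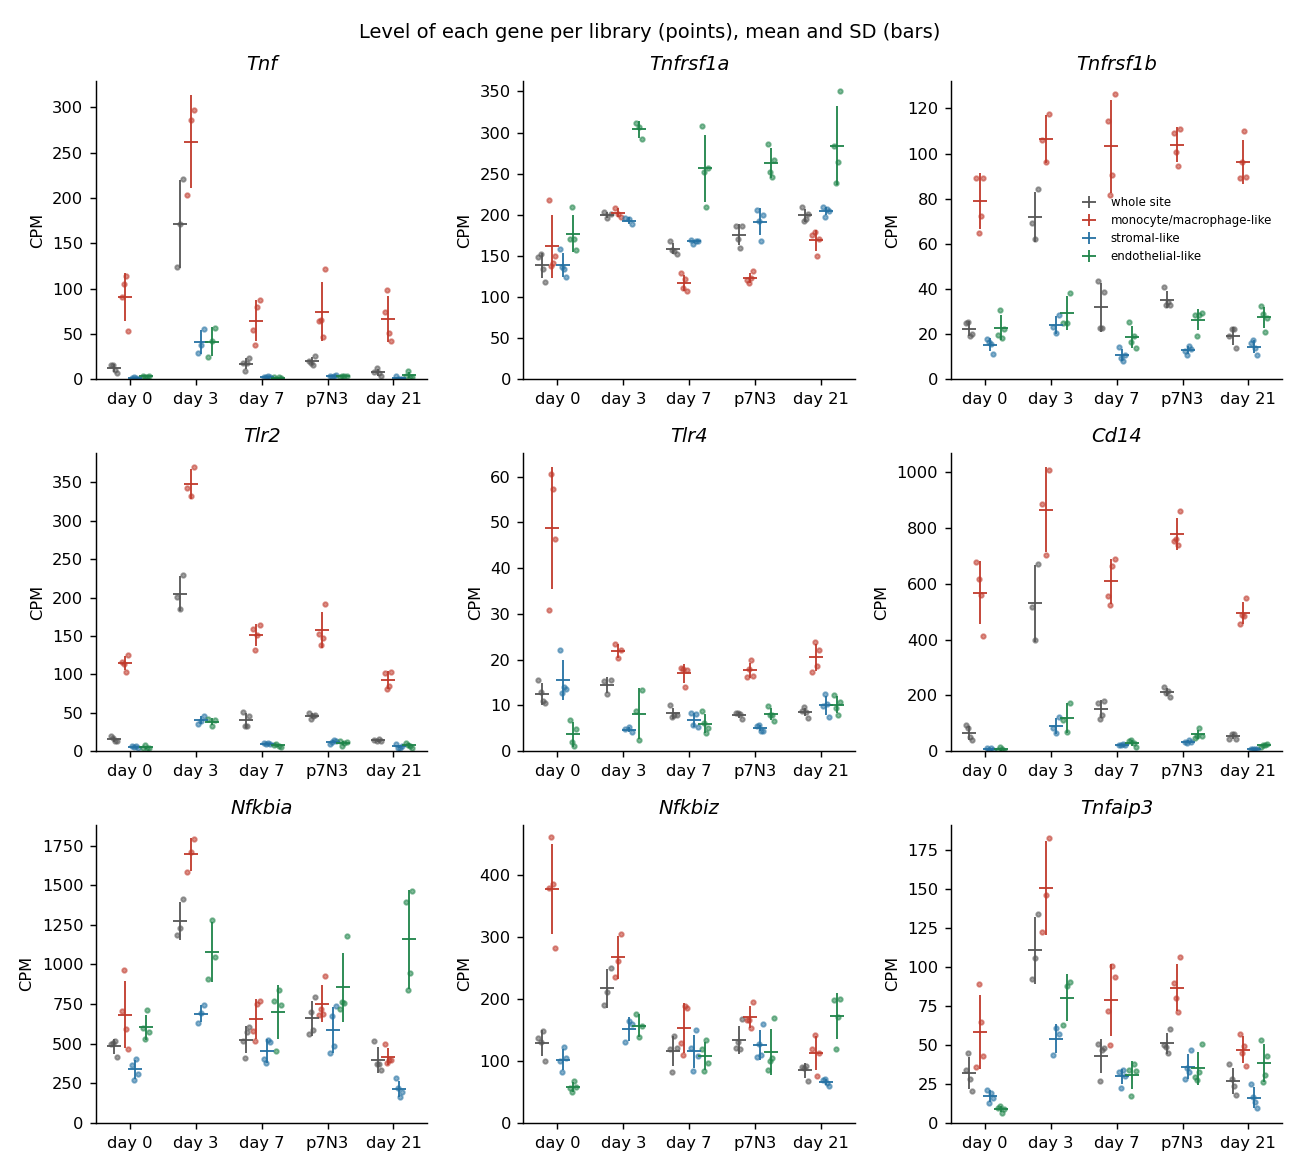
Level of each of the 9 genes in CPM (vertical axes, each starting at 0) in the day 0, day 3, day 7, p7N3 and day 21 libraries, for the whole site and for monocyte/macrophage-like, stromal-like and endothelial-like cells. Points are libraries and bars give the mean and SD. The day 3 libraries of Tnf, Tlr2, Cd14 and Nfkbia stand above the others in the whole site, while Tlr4 of macrophage-like cells is highest at day 0.

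Most transcripts of the pattern receptors and of Tnf came from monocyte/macrophage-like cells at day 3. On that day these cells held 73.2% ± 6.6 of the site's Tnf UMIs, 80.3% ± 1.5 of Tlr2, 78.1% ± 4.5 of Cd14 and 71.9% ± 2.1 of Tlr4 (SD, n = 3). Their part of the site's UMIs was 47.2%, so Tnfrsf1a, at 47.7% ± 1.4, was spread in proportion to the RNA. A share depends on a class's part of the RNA as well as on its level, and both differed before injury. Stromal-like cells held 44.8% ± 14.7 of the Tlr4 UMIs at day 0, when macrophage-like cells held 30.5% ± 7.1 (SD, n = 4). The level of Tlr4 was nonetheless higher in macrophage-like cells, at 30.9 to 60.6 CPM against 12.8 to 22.1 CPM. Endothelial-like cells held 33.6% ± 6.5 of the Nfkbia UMIs at day 0 (SD, n = 4), at 529 to 715 CPM beside 413 to 516.5 CPM in the whole site. The macrophage-like share of Tlr4 was 41.6% ± 10.3 at day 7 and 19.8% ± 4.7 at day 21 (SD, n = 4).

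Within the monocyte/macrophage-like class, Tnf stood at 90.9, 105, 114 and 53.6 CPM at day 0 and at 203.5, 286 and 297 CPM at day 3. It then fell to 54.5, 37.6, 79.5 and 87.5 CPM at day 7, and the day 21 libraries held 73.9, 98.2, 50.8 and 42.6 CPM. The day 3 libraries did not overlap with those of any other day. The log2FC was 1.77 (1.06 to 2.48, adjusted p = 0.000255) from day 0 to day 3 and -1.97 (-2.51 to -1.42, adjusted p = 7.66e-06) from day 3 to day 7.

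Both receptors of TNF behaved differently in these cells. Tnfrsf1a was at 218, 137, 141 and 150.1 CPM at day 0, 208, 201.5 and 197 CPM at day 3, 129, 111, 122 and 108 CPM at day 7, and 175, 179, 150 and 171 CPM at day 21. It rose by a log2FC of 0.51 to day 3, where replicate 1 of day 0 overlapped with day 3, fell by 0.73 to day 7 and rose again by 0.44 to day 21. Tnfrsf1b, at 89.2, 64.6, 72.5 and 89.3 CPM on day 0 and 106, 96.1 and 117.5 CPM on day 3, rose by 0.64 and then showed no call, with a log2FC of 0.008 (-0.24 to 0.26) between day 3 and day 7.

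Tlr2 and Tlr4 moved in opposite directions in macrophage-like cells. Tlr2, which pairs with Tlr1 or Tlr6, was at 117, 113, 103 and 125 CPM at day 0 and at 343, 332 and 370 CPM at day 3, followed by 159, 132, 151 and 165 CPM at day 7 and 102, 81.0, 84.7 and 103 CPM at day 21. Its day 3 libraries were close together and well above all others, with a log2FC of 1.84 (1.56 to 2.12, adjusted p = 5.91e-10) from day 0. It fell by 1.15 to day 7 and by 0.78 to day 21.

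Tlr4, the lipopolysaccharide receptor, was highest in macrophage-like cells of day 0, at 30.9, 60.6, 57.2 and 46.5 CPM, and was at 23.4, 20.3 and 22.1 CPM at day 3. The 4 libraries of day 7 held 14.0 to 18.3 CPM, and those of day 21 held 17.4 to 23.8 CPM. No day 0 library overlapped with a later one. The log2FC was -0.81 (-1.22 to -0.41, adjusted p = 0.0021) at day 3 and -0.94 (-1.39 to -0.49, adjusted p = 0.00302) at day 21, both against day 0. Cd14, which hands lipopolysaccharide to Tlr4, went the other way: 679, 618, 561 and 414.5 CPM at day 0 and 887, 704 and 1008 CPM at day 3, a log2FC of 0.84 (adjusted p = 9.8e-05) with no overlap. It fell by 0.46 to day 7, when the libraries held 556, 525, 665 and 689 CPM, a call that was lost without day 3 replicate 1 or 3 or day 7 replicate 1 or 2 (adjusted p 0.0503 to 0.148).

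Of the feedback genes, Nfkbia was at 708.5, 965, 591 and 468 CPM in macrophage-like cells at day 0, at 1580, 1709 and 1791 CPM at day 3, at 580, 516, 752 and 769 CPM at day 7, and at 499, 375.5, 399 and 399.6 CPM at day 21. The day 3 libraries stood apart, with a log2FC of 1.55 (1.19 to 1.92, adjusted p = 3.43e-07). Tnfaip3 was also highest at day 3, with 36.0, 88.8, 64.8 and 42.9 CPM at day 0 and 123, 146 and 182.5 CPM at day 3 (log2FC 1.72, adjusted p = 4.06e-05). It was at 71.6, 49.7, 100.4 and 93.8 CPM at day 7 and at 57.2, 44.8, 49.1 and 36.3 CPM at day 21.

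Nfkbiz differed from the other feedback genes in this class. Its libraries held 379, 460, 385 and 282 CPM at day 0, 235, 261 and 304 CPM at day 3, 128.5, 110, 188.5 and 185 CPM at day 7, and 119.5, 141, 75.4 and 112.5 CPM at day 21. Day 0 and day 3 overlapped and were not called apart (log2FC -0.26, -0.65 to 0.14, adjusted p = 0.317). The level then fell by 0.75 to day 7 and by 0.54 to day 21, and the day 21 libraries lay wholly below those of day 0 (log2FC -1.54, adjusted p = 5.54e-06).

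No call of day 3 against day 0 within a class or in the whole site was lost when any 1 library was left out. In counts, 7 of the 9 genes were called higher (20.5% of the 11525 genes tested) and 1, Tlr4, lower (16.8%) at day 3 than at day 0 in monocyte/macrophage-like cells. From day 3 to day 7, 7 were lower (14.2%), the others being Tnfrsf1b and Tlr4. From day 7 to day 21, 1 was higher (7.29%) and 4 were lower (8.51%), and at day 21 against day 0 Tlr4, Nfkbia and Nfkbiz were lower (8.49%), with Nfkbia overlapping between those days. Without any 1 of 13 libraries, day 0 replicates 1 and 2 and day 21 replicates 2, 3 and 4 among them, that call of Nfkbia was lost (adjusted p 0.0502 to 0.213), and the fall of Nfkbiz from day 7 to day 21 was lost without any 1 of 8 (0.0515 to 0.17), day 7 replicates 3 and 4 and day 21 replicates 1, 3 and 4 among them. The class was made of other cells on different days. A cluster led by Cd209f, Cd163 and Folr2 made up 86.8% of it at day 0 and 2.24% at day 3, when a cluster led by Chil3 and Ly6c2 made up 41.7% and a cluster led by Ppbp and Pf4 made up 43.2%. Each share of a cluster in a class, here and below, pools the cells of all libraries of a group.

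Values within a cluster are given as a description with no test, since the clusters were formed on these cells. In the Cd209f, Cd163 cluster, Nfkbia stood at means of 661, 635 and 730 CPM at days 0, 3 and 7, and Tnf at 92.5, 119 and 141 CPM. Neither had the day 3 peak that the class as a whole shows. Tlr4 declined within this cluster, from a mean of 51.6 CPM at day 0 to 35.2 at day 3, 27.4 at day 7 and 21.5 at day 21. Cd14 was lower there at day 3, with 145.5 ± 8.9 CPM, than at day 0, with 425 ± 79 CPM, or day 7, with 462 ± 78 CPM.

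The Chil3, Ly6c2 cluster held more Cd14 than the others and more at day 7 (1753 ± 343 CPM) than at day 3 (1397 ± 122 CPM), while its Tnf was lower at day 7 (112 ± 76 CPM) than at day 3 (288 ± 76 CPM) and its Nfkbia went from 2142 to 1332 CPM. In the Ppbp, Pf4 cluster, Cd14 was at 515 ± 71 CPM at day 3 and 1089 ± 199 CPM at day 7, and Nfkbia was about level, at 1521 and 1571 CPM. Cd14 of the class fell from day 3 to day 7, while its mean in each of the main day 3 clusters was higher at day 7. At day 7 the class was led by the clusters marked by Ms4a7 and Trem2 (36.6%), MHC class II genes (24.3%) and Arg1 and Spp1 (17.1%).

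**Figure D2:**
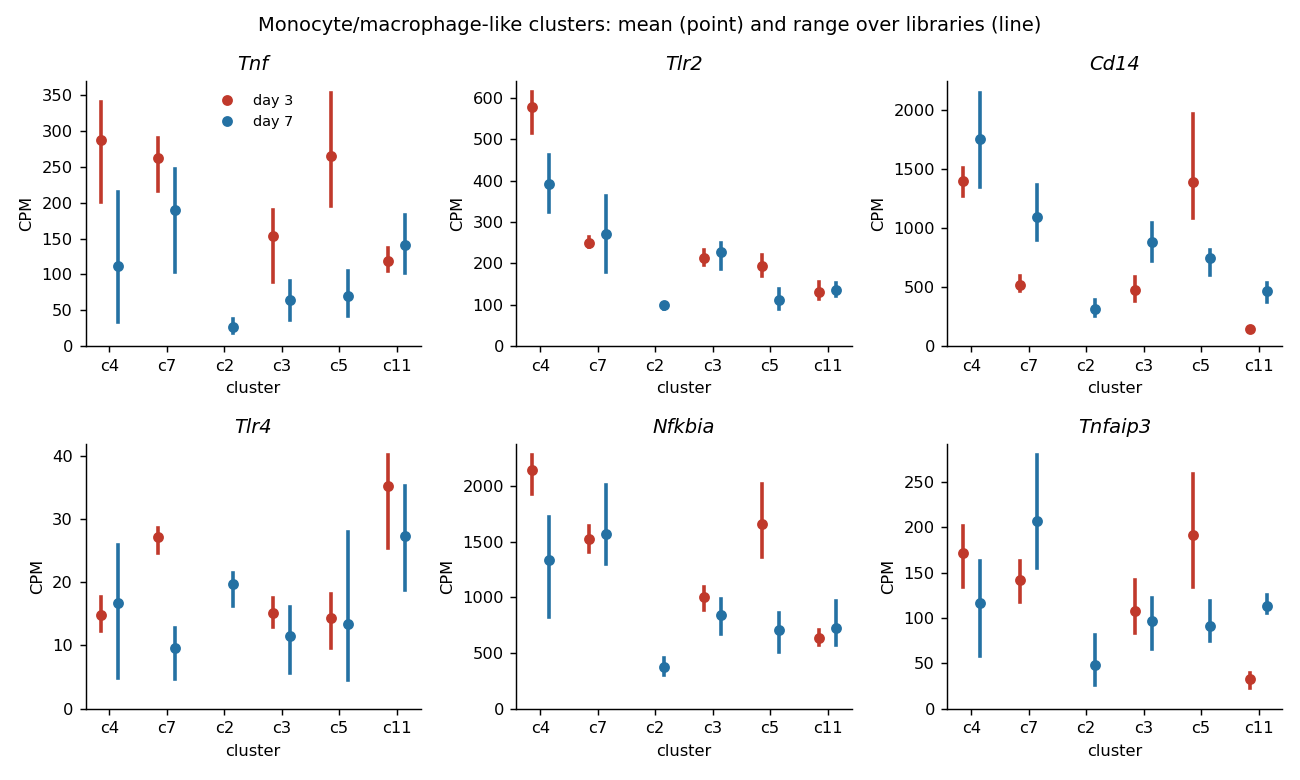
Levels in CPM (vertical axes) of Tnf, Tlr2, Cd14, Tlr4, Nfkbia and Tnfaip3 in 6 clusters of monocyte/macrophage-like cells at day 3 and day 7, as the mean (point) and range (line) over libraries. Cd14 of the Chil3, Ly6c2 cluster is the highest, at means of 1397 CPM at day 3 and 1753 CPM at day 7, and Tnf of the same cluster is lower at day 7 than at day 3.

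Cells with a UMI of Tnf or Nfkbia were more frequent among macrophage-like cells at day 3. With every cell thinned to 1500 UMIs, Tnf was seen in 9.57% of cells at day 0, 28.3% at day 3 and 7.72% at day 7 (means over libraries), and Nfkbia in 45.2%, 81.0% and 44.3%. Without thinning, Nfkbia was seen in 62.8%, 98.8% and 73.2%. Cd14 went from 36.9% to 60.6% and 44.4%, and Tlr4 went the other way, from 7.74% to 2.73% and 2.78%. Erythrocyte-like cells of day 3, thinned in the same way, gave 0% for Tnf and Tlr4, 8.88% for Cd14 and 17.6% for Nfkbia (31.8%, 5.26%, 42.5% and 59.3% without thinning), as means over 2 libraries with 75 cells and a median of 11272 UMIs, against 9665 UMIs in macrophage-like cells of that day. The background at day 0 and day 7 was not measured. At day 0, 30 of the 355 cells fell under 1500 UMIs and were left out, and at days 3 and 7 none did.

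Several other signals moved with these days. The summed level of 12 genes known to respond to tissue digestion was 7000 to 11070 CPM in macrophage-like cells of day 0. It was lower on the later days, with 5800 to 6035 CPM on day 3, 4617 to 6393 CPM on day 7 and 5354 to 6416 CPM on day 21. The 9 granulocyte markers summed to 198 to 280 CPM in the same cells at day 0 and to 1860 to 2807 CPM at day 3, and Ly6g, a defining gene of neutrophils, was at 0 at day 0 and day 21. Their part in the results was not tested.

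In the day 3 libraries, granulocyte-like cells carried more of these transcripts than macrophage-like cells. In those 3 libraries, Tnf was at 386, 911.5 and 1019 CPM in granulocyte-like cells, Cd14 at 1625, 1979 and 2313 CPM, Nfkbia at 2842, 3186 and 3605 CPM and Tnfaip3 at 250, 270 and 316 CPM. Each of these lies above the macrophage-like range of that day. Tlr4 was at 58.6, 34.1 and 46.8 CPM, against 20.3 to 23.4 CPM. Across the 4 libraries with both classes (3 of day 3 and 1 of day 7), all 9 genes were lower in macrophage-like cells (15.7% of the 10038 genes tested). The log2FC ran from -0.68 for Tlr2 to -1.70 for Tnf (-2.02 to -1.38, adjusted p = 6.5e-24, edgeR). With 4 libraries, a p-value this small rests on a spread shared between genes. It does not measure the spread of Tnf between these libraries. Nfkbia differed by -1.15 and Nfkbiz by -1.30. In the day 7 library, with 10 granulocyte-like cells, 3 counts are 60.3 CPM, taken as a floor. Tnf (20.1 CPM or 1 UMI, against 54.5 CPM in macrophage-like cells) lay below it in both classes. So did Tlr4 (0 against 18.3 CPM), and no direction can be read for these 2 genes. Tlr2 was at 120.5 CPM, or 6 UMIs, against 159 CPM. With DESeq2 the difference of Tnf was not called (adjusted p = 0.154), and that of Tlr2 was -0.29 (0.215) at Leiden resolution 2 and -0.36 (0.13) with all genes allowed as variable genes. No other group had enough libraries with 10 or more granulocyte-like cells for a comparison of days.

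**Figure D3:**
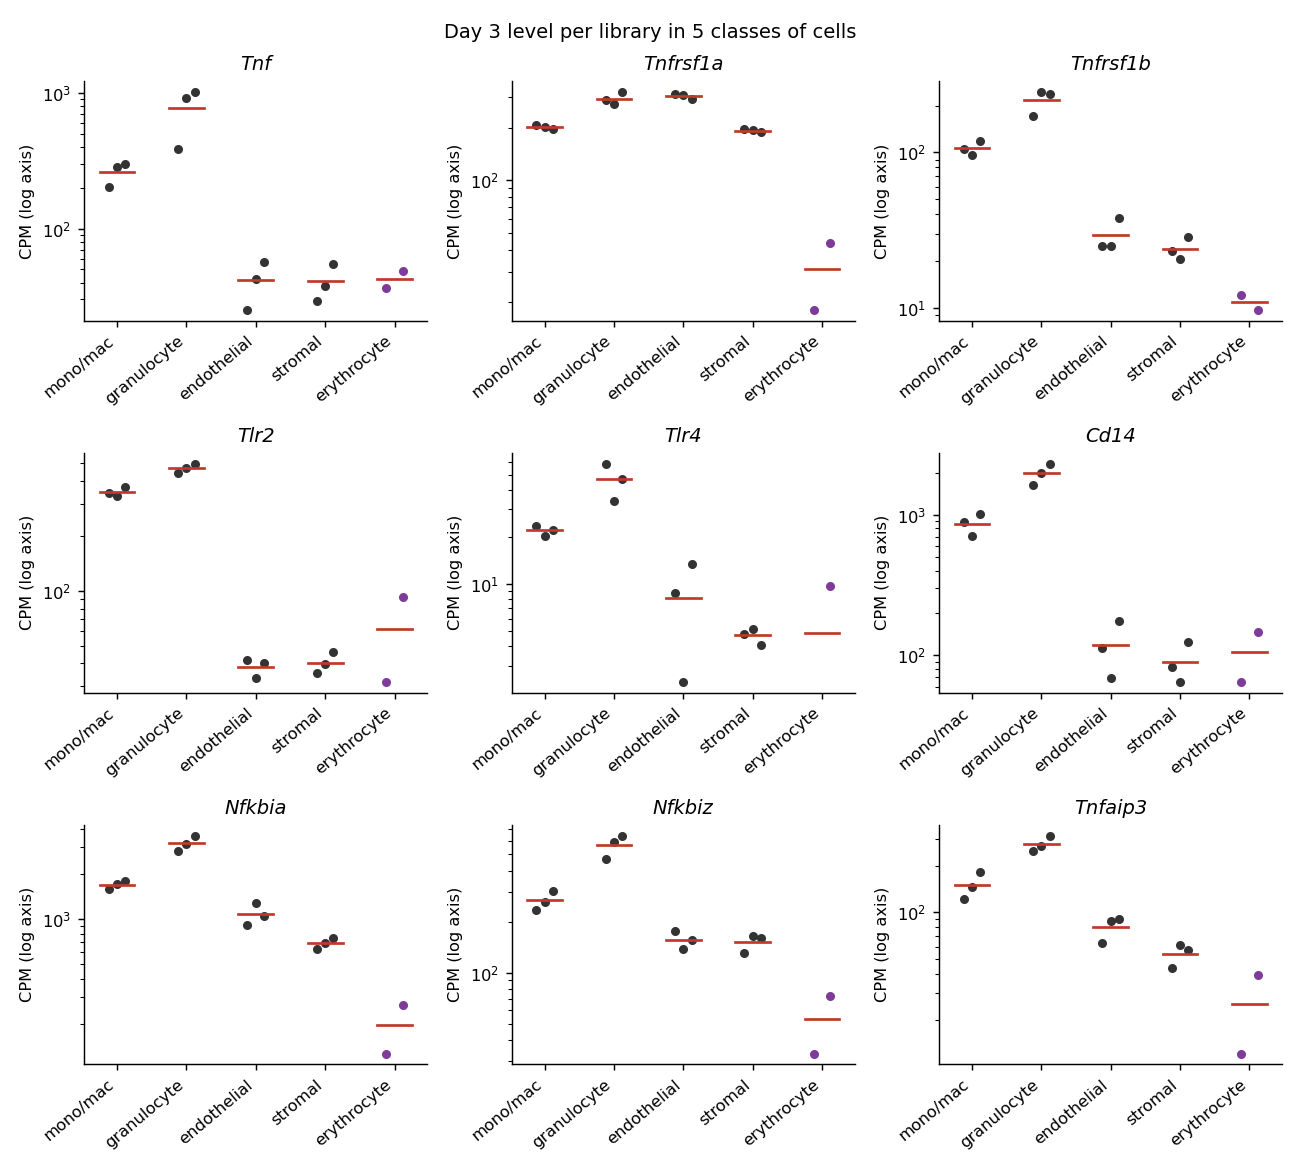
Levels in CPM (vertical axis, log scale) of the 9 genes in 5 cell classes of the day 3 libraries; each point is a library and the red line is the mean. Values of 0 cannot be drawn on a log scale, which leaves out Tlr4 of erythrocyte-like cells in replicate 2, and granulocyte-like cells are highest for Tnf, with 386 to 1019 CPM.

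Dendritic cells marked by Ccl22 and Ccr7 held more Nfkbia and less Tlr2, Cd14, Tnf and Tnfrsf1a than macrophage-like cells. In the 4 day 7 libraries, Nfkbia stood at 1328, 917, 1884 and 1818 CPM in this class, above all macrophage-like values of that day. The log2FC of macrophage-like against dendritic cells was -1.22 (adjusted p = 2.19e-22, edgeR), a p-value that again rests on a spread shared between genes. Tnfaip3 was at 161, 37.2, 220 and 92.5 CPM, overlapping with macrophage-like cells (-0.65, adjusted p = 0.0125), and this call was lost without day 7 replicate 1 (0.48) or 3 (0.228) and with DESeq2 (0.251), no filter, Leiden resolution 2 or all genes allowed as variable genes (0.126 to 0.477). Tlr2 (log2FC 3.18), Cd14 (3.15), Tnf (1.58, or 2.25 without replicate 2) and Tnfrsf1a (1.48) were higher in macrophage-like cells. In dendritic cells Tlr2 rested on 1, 2, 2 and 6 UMIs, below 3 counts in replicates 1, 2 and 3. Tnf rested on 4, 6, 0 and 4 UMIs, and in replicate 2 it was at 37.2 against 37.6 CPM in macrophage-like cells. The size of both folds is therefore uncertain. Tlr4 had no UMI in any of the 4 dendritic libraries, so that at the floor of 3 counts over the group (4.40 CPM) macrophage-like cells, with a mean of 17.0 CPM, were at least 3.87-fold higher. In counts, 5 genes were higher (19.5% of the 9272 genes tested) and 2 lower (14.1%), with a median of 0.26 over all genes, and Tnfrsf1b and Nfkbiz were not called.

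Tnfaip3 was also high in T/NK lymphocyte-like cells, at 383 ± 196 CPM at day 0 (SD, n = 3) and 189 ± 55 CPM at day 7 (n = 4). At day 7 these cells held 915 ± 112 CPM of Nfkbia and 44.1 ± 10.1 CPM of Tnfrsf1a. Pericyte and smooth muscle-like cells were on the other side, with Tnfrsf1a at 117 ± 31 CPM at day 0 and 320 ± 26 CPM at day 3, 320 ± 30 CPM at day 7 and 338 ± 24 CPM at day 21. Their Nfkbiz was at 386 ± 132 CPM at day 0 and 175 ± 26 CPM at day 3. These classes were not tested.

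Set against stromal-like cells over the 15 libraries of the 4 days, macrophage-like cells were higher in 8 of the 9 genes (37.8% of the 11553 genes tested). The difference was 5.31 on the log2 scale for Cd14, 4.53 for Tnf, 4.0 for Tlr2, 2.92 for Tnfrsf1b, 1.72 for Tlr4 and 1.70 for Tnfaip3, and about 1.1 for Nfkbia (1.09) and Nfkbiz (1.12). With DESeq2's size factors the median over all genes moved from -0.02 to -0.16 in this comparison. Tnfrsf1a was not called, with a log2FC of 0.02 (-0.13 to 0.17), the interval of its difference between the classes averaged over the days. The direction differed by day. Macrophage-like libraries held 197 to 208 CPM at day 3, above 188.6 to 196 CPM in stromal-like ones. At day 7 they held 108 to 129 CPM, below 164.5 to 169 CPM, and at day 21 they held 150 to 179 CPM, below 197.5 to 209 CPM. Against endothelial-like cells, 7 genes were higher in macrophage-like cells (32.9% of the 8831 genes tested) and Tnfrsf1a was lower with a log2FC of -0.35 (40.5% of all genes lower). Nfkbia was not called, with 0.10 (-0.31 to 0.50), a mean over days of opposite direction. Its macrophage-like libraries held 1580 to 1791 CPM at day 3, above 907 to 1281 CPM in endothelial-like ones. At day 21 they held 375.5 to 499 CPM, below 841 to 1461 CPM. Nfkbiz, counted among the 7, was at 75.4 to 141 against 120 to 200 CPM at day 21.

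In stromal-like cells, which hold the fibroblasts and progenitors of the site, the feedback genes rose at day 3. Nfkbia was at 365, 274, 402.5 and 309 CPM at day 0 and at 632, 694 and 743 CPM at day 3, with a log2FC of 1.18 (adjusted p = 2.95e-05). Tnfaip3 went from 21.2, 12.8, 19.5 and 15.8 CPM to 43.6, 61.1 and 57.2 CPM (1.73), and Nfkbiz from 99.3, 81.9, 122 and 105 CPM to 130, 164 and 160 CPM (0.71). None of the 3 overlapped between the days. Tnfrsf1a, at 124 to 159 CPM on day 0 and 189 to 196 CPM on day 3, rose by 0.63.

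Tlr4 fell in stromal-like cells. It was at 22.1, 12.8, 14.1 and 13.5 CPM at day 0 and at 4.78, 5.18 and 4.10 CPM at day 3, a log2FC of -1.62 (-2.11 to -1.12, adjusted p = 8.21e-06). All later libraries stayed below the lowest of day 0, with 5.35 to 8.31 CPM in those of day 7 and 7.42 to 12.5 CPM in those of day 21. From day 7 to day 21 it rose by 0.52 (adjusted p = 0.038), with overlap, a call that was lost without day 7 replicate 2 or 4 or day 21 replicate 1, 2 or 3 (0.0662 to 0.108). Erythrocyte-like cells of day 3, which should lack Tlr4, held 0 CPM in 1 library (3 counts there are 4.53 CPM) and 9.73 CPM, or 2 UMIs, in the other, so background was not measured closely enough at this depth to set beside the stromal-like level.

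Tnf, Tlr2 and Cd14 also had more counts in stromal-like cells at day 3, but at the level found in cells that should lack them. Tnf went from 1.88, 2.56, 1.63 and 0 CPM to 29.2, 38.0 and 55.3 CPM (log2FC 4.93), Cd14 from 3.76 to 11.4 CPM up to 82.1, 64.9 and 124 CPM (3.66), and Tlr2 from 3.76 to 6.5 CPM up to 35.3, 39.6 and 46.1 CPM (3.01). Erythrocyte-like cells of day 3, which should make none of them, held 36.3 and 48.7 CPM of Tnf, 65.0 and 146 CPM of Cd14 and 31.7 and 92.5 CPM of Tlr2 in the 2 libraries with 10 or more such cells. At day 3 the stromal-like and endothelial-like levels of these 3 genes cannot be told apart from the erythrocyte-like level. Whether they are background or expression was not tested. The 13 macrophage markers moved with them, from 120 to 251 CPM in stromal-like cells at day 0 to 1578 to 1975 CPM at day 3, which is 6.0 to 7.1% of the macrophage-like level. In each day 3 library the stromal-like levels of Tnf, Tlr2 and Cd14 were a larger part of the macrophage-like level than this. Macrophage-like cells of day 3 held 203.5 to 297 CPM of Tnf, 332 to 370 CPM of Tlr2 and 704 to 1008 CPM of Cd14. In erythrocyte-like cells Nfkbia (127 and 268 CPM), Nfkbiz (33.3 and 73.0), Tnfaip3 (12.1 and 38.9) and Tnfrsf1a (18.1 and 43.8) lay below all stromal-like and endothelial-like values of day 3. For Nfkbiz and Tnfaip3 the higher of these values is as large as the stromal-like rise, from means of 102 to 151 CPM and of 17.3 to 54.0 CPM, and the part of background in that rise was not tested. Tnfrsf1b rose in stromal-like cells from 11.3 to 17.9 CPM at day 0 to 20.7 to 28.4 CPM at day 3. Erythrocyte-like cells held 12.1 and 9.73 CPM of it, or 8 and 2 UMIs, and the part of background in its rise was not tested either.

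In counts, 8 genes were higher at day 3 than at day 0 in stromal-like cells (32.8% of the 13672 genes tested) and 1 lower (28.7%). Among the 8 were Tnf, Cd14 and Tlr2, whose day 3 levels cannot be told apart from the erythrocyte-like level. The part of background in the rises of Tnfrsf1b, Nfkbiz and Tnfaip3 was not tested. From day 3 to day 7, 8 were lower (21.7%) and Tlr4 was not called (log2FC 0.42, -0.01 to 0.85, adjusted p = 0.112). From day 7 to day 21, Tnfrsf1a and Tlr4 were higher (16.9%) and 5 were lower (20.4%), of which Nfkbia fell by 1.07, Nfkbiz fell by 0.81 and Tnfaip3 fell by 0.87. At day 21 against day 0, Tnfrsf1a was higher (0.61, 17.5% of all genes), and Tlr4 (-0.68), Nfkbia (-0.61) and Nfkbiz (-0.61) were lower (14.1%). The last 3 calls were lost, in that order, without day 0 replicate 1 or day 21 replicate 4 (adjusted p up to 0.208), without day 0 replicate 1 or 3 or day 21 replicate 4 (up to 0.0852), and without day 0 replicate 3 (0.0668). Calls were also lost for Nfkbiz from day 3 to day 7 without day 3 replicate 2 or 3 or day 7 replicate 2 (up to 0.0683), and for Tlr2 from day 7 to day 21 without day 7 replicate 3 or day 21 replicate 2 or 3 (up to 0.0955). A cluster led by Prg4 and Cxcl14 made up 92.6% of the class at day 3, and 2 other clusters made up 60.2% and 39.4% at day 0. The digestion genes summed to 7893 to 9926 CPM at day 0 and 3612 to 4337 CPM at day 3, opposite in direction to the feedback genes, and their part was not tested.

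The change from day 0 to day 3 itself differed between macrophage-like and stromal-like cells for 6 genes, by the interaction of class and day in edgeR. Tlr4 (1.14, adjusted p = 0.0139) and Nfkbia (0.70, adjusted p = 0.0059) changed upward relative to stromal-like cells (16.5% of the 14053 genes tested were called higher). Tnf (-2.84), Cd14 (-2.51), Tlr2 (-0.86, adjusted p = 0.0316) and Nfkbiz (-0.66, adjusted p = 0.0115) changed downward relative to them (8.31% lower). Those of Tnf, Cd14 and Tlr2 rest on stromal-like day 3 levels that cannot be told apart from the erythrocyte-like level. The median difference over all genes was 0.26, and was 0.003 with RLE factors and -0.127 with DESeq2. Of the genes called, 66.5% were higher with TMM scaling, 46.1% with RLE factors and 39.0% with DESeq2. Nfkbiz rose in stromal-like cells and was not called in macrophage-like cells, and this difference itself passed the test, but not without day 0 replicate 1 or 2 or day 3 replicate 2 (up to 0.0703). The difference of Tlr4 was lost without day 0 replicate 1 (0.297), that of Tlr2 without day 0 replicate 1, 2 or 4 or day 3 replicate 2 or 3 (up to 0.129), and those of Tlr4 (0.836, adjusted p = 0.0928) and Nfkbia (0.443, adjusted p = 0.157) were lost with DESeq2, as they were with RLE factors (0.0746 and 0.0983). Tnfaip3 was not shown to differ (0.31, -0.34 to 0.96).

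The 3 feedback genes were higher at day 21 than at day 0 in endothelial-like cells. This class had only 31 to 32 cells per library at day 3, against 206 to 288 at day 0 and 100 to 240 at day 7. Nfkbia was at 601, 529, 715 and 574 CPM at day 0, 907, 1281 and 1047 CPM at day 3, 769, 453, 841 and 741 CPM at day 7, and 1391, 841, 945.5 and 1461 CPM at day 21. It rose by 0.91 to day 3 (adjusted p = 0.00136), fell by 0.73 to day 7 and rose by 0.76 to day 21 (adjusted p = 0.00623). The fall to day 7 was lost without day 3 replicate 2 or 3 or day 7 replicate 2 (up to 0.114). Nfkbiz had 49.5 to 68.1 CPM in day 0 libraries and 139 to 176 CPM in those of day 3. Its day 7 range was 83.0 to 134 CPM and its day 21 range 120 to 200.4 CPM, and its fall from day 3 to day 7 was lost without day 3 replicate 1 or 3 or day 7 replicate 2 or 4 (up to 0.149).

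Tnfaip3 rose in endothelial-like cells from 9.44, 10.9, 6.10 and 8.80 CPM at day 0 to 62.8, 87.7 and 90.7 CPM at day 3 (log2FC 3.24, 2.53 to 3.95, adjusted p = 7.91e-08). At day 21 it was at 53.5, 26.6, 30.5 and 42.8 CPM, all above day 0 (2.15, adjusted p = 7.83e-05). Tnfrsf1a went from 157 to 210 CPM at day 0 to 293 to 312 CPM at day 3 (0.85). In counts, 7 genes were higher at day 3 than at day 0 (28.1% of the 10131 genes tested). Among the 7 were Tnf, Tlr2 and Cd14, whose day 3 levels cannot be told apart from the erythrocyte-like level. From day 3 to day 7, 6 genes were lower (8.27%). From day 7 to day 21, 3 were higher (17.2%), namely Tnfrsf1b, Nfkbia and Nfkbiz. At day 21, 6 were higher than at day 0 (15.4%): Tnfrsf1a, Tlr4, the 3 feedback genes and Cd14. Tlr4 rested on 8, 2, 1 and 6 UMIs at day 0 (6.86, 1.98, 1.02 and 4.80 CPM), against 7.99 to 12.3 CPM at day 21. In replicates 2 and 3 of day 0 it lay below 3 counts (2.97 and 3.05 CPM). Background of Tlr4 and Cd14 was not measured on these days. The rise of Tnfrsf1b from day 7 was lost without any 1 of 11 libraries, all of day 21 but replicate 3 and all of day 7 but replicate 1 among them (up to 0.16), and against day 0 Tlr4 was lost without day 0 replicate 2 or 3 or day 21 replicate 1 (up to 0.0615) and Cd14 without day 0 replicate 4 (0.0504). Without day 0 replicate 2 the log2FC of Cd14 was 5.02 at day 3, beside 4.32 with it, and 2.42 at day 21, beside 1.75. The digestion genes moved with the later days here, with 3050 to 4700 CPM on day 7 and 6995 to 8392 CPM on day 21. They held 6082 to 7287 CPM in day 0 libraries and 3408 to 4504 CPM on day 3, and their part in the rise from day 7 to day 21 was not tested.

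The p7N3 libraries addressed what a CD47 agonist does to these genes at day 7. None of the 9 genes was called in any class by edgeR. At an unadjusted p below 0.05 there were 2 of the 9 genes in the whole site (1797 of all 15971) and 1 in macrophage-like cells (795 of 11525). There were 5 in stromal-like cells (1458 of all 13672) and 2 in endothelial-like cells (673 of 10131). DESeq2 called none of the 9 in these classes. Over all genes DESeq2 called 155 in the whole site, 26 in macrophage-like and 75 in stromal-like cells. By edgeR, calls over all genes were: 1 of 15971 (0.00626%), 2 of 11525 (0.0174%), 8 of 13672 (0.0585%) and 0 of 10131 (0%) in the same order. The difference of the p7N3 effect between macrophage-like and stromal-like cells was called for none of the 9 genes (0.0427% of all genes). At an unadjusted p below 0.05 there were 2 of the 9, beside 987 of all 14053 genes.

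Cd14 was the member nearest to a difference. In macrophage-like cells it was at 752.5, 760, 739 and 863 CPM with p7N3 and 556, 525, 665 and 689 CPM at day 7, and in the whole site at 228, 209, 214 and 193 CPM against 173, 115, 130 and 181 CPM. In both, all p7N3 libraries lay above all day 7 libraries. The log2FC was 0.33 (0.06 to 0.61, adjusted p = 0.585) and 0.49 (0.05 to 0.94, adjusted p = 0.39), which did not pass the test.

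In stromal-like and endothelial-like cells Cd14 had no background measured at day 7 or with p7N3, and the part of background was not tested. It had the same order in stromal-like cells, with 29.6 to 41.2 CPM against 20.5 to 24.3 CPM (0.58, 0.22 to 0.94, adjusted p = 0.237), and in endothelial-like cells, with 48.1 to 83.3 CPM against 14.0 to 39.6 CPM (0.92, 0.35 to 1.49, adjusted p = 0.643). It was the only 1 of the 9 genes without overlap in each, beside 6.57% of all genes in the whole site, 4.25% in macrophage-like, 6.10% in stromal-like and 4.26% in endothelial-like cells. The Chil3, Ly6c2 cluster, the richest in Cd14, made up 11.3% of macrophage-like cells with p7N3 and 6.26% at day 7. These shares pool the cells of a group's libraries, and their spread between libraries was not measured. The granulocyte markers in macrophage-like cells summed to 354 to 1098 CPM with p7N3 and 215 to 556 CPM at day 7. Their part was not tested.

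Tnf of macrophage-like cells stood at 64.3, 66.0, 46.8 and 122 CPM with p7N3, overlapping with day 7, and its log2FC was 0.18 (-0.34 to 0.71). Nfkbia stood at 679.5, 716, 689 and 927.5 CPM with a log2FC of 0.18 (-0.15 to 0.51). The intervals of Tlr2 (-0.19 to 0.24), Tlr4 (-0.23 to 0.28) and Tnfrsf1a (-0.17 to 0.26) show how large a change these libraries could have missed.

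The wider pathway was counted in the same fits. Across the site, 41 of the 61 pathway genes were higher (35.7% of all genes) and 7 lower (34.5%) at day 3 than at day 0, with a median log2FC of 0.76 beside 0.003 for all genes, and all 5 NF-kB subunit genes were among those higher. Tlr1, a partner of Tlr2, rose by 4.58 and Tlr13 by 4.19, while Timp3, an inhibitor of the TNF-shedding protease Adam17, fell by 3.85. In macrophage-like cells, 21 of 59 were higher (20.5% of all genes) and 5 lower (16.8%), with Tlr1 (2.62) and the signalling adapter gene Traf1 (2.05) leading the rise, and Timp3 (-2.58) and the deubiquitinase gene Otud7b (-1.97) the fall. Timp3 was low in these cells, at means of 24.4 CPM at day 0 and 3.31 CPM at day 3, against 616 and 32.3 CPM in the whole site. The part of background in its fall was not tested. The feedback list counted 9 higher and 1 lower of 17 there.

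From day 3 to day 7, 7 pathway genes of 59 were higher (14.1% of all genes) and 19 lower (14.2%) in macrophage-like cells. The share called higher was near that of all genes. Nfkbid fell by 1.28 and Bcl3 by 1.10, both genes of nuclear IkB proteins, and Ly96, the partner of Tlr4, rose by 0.58. In stromal-like cells, 27 of 57 were higher (32.8% of all genes) and 15 lower (28.7%) at day 3, with Nfkbid at 4.70, the kinase gene Irak2 at 2.43, Timp3 at -2.96 and Lbp, which binds lipopolysaccharide in serum, at -1.76. Nfkbid of day 3 was at a mean of 23.5 CPM in stromal-like cells, against 152 CPM in macrophage-like cells. In endothelial-like cells, Traf1 rose by 2.61 and Timp3 fell by 2.33 to day 3, and Zfp36, which destabilises Tnf mRNA, rose by 2.00 from day 7 to day 21. Pathway genes were not set beside erythrocyte-like cells, and the part of background in these changes was not tested. Dendritic cells again stood apart, with log2FC of macrophage-like against dendritic cells of -4.30 for Birc2 and -4.17 for Traf1. None of the pathway genes was called between p7N3 and day 7 by edgeR.

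The genes whose levels ran most like those of the 9 were sought over 42 means of class and group among 13382 genes, by Pearson's r of log2(CPM + 1). The points share libraries and depth, and r is a description. Cd14 ran with C5ar1 (r = 0.97), the receptor for complement C5a, and with Ccl3 (0.94), and Tlr2 with C5ar1 (0.94) and Cd14 (0.94). Tnf ran with Plek (0.89) and Tnfrsf1a with Ifitm3 (0.90). The feedback genes ran with each other: Nfkbia with Nfkbiz (0.79) and Tnfaip3 (0.79), while the nearest to Tnfaip3 was Pim1 (0.82). The nearest to Tlr4 was Slc36a1 (0.78).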

How the data were processed

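The authors aligned the reads to mm10 with Cell Ranger and deposited raw UMI counts per gene and barcode for each of the 19 libraries. These sum to 3019467 to 39870492 UMIs per library in the cells kept. Day 0 replicate 1 was deposited with 737280 barcodes, of which 1003 were kept, while the other libraries held 614 to 3786 barcodes. Barcodes with 500 or more genes and no more than 25% of UMIs from mitochondria were kept and clustered (scanpy 1.11.5, 2000 variable genes without the genes reported, 30 components, 20 neighbours, Leiden resolution 0.8). No doublets were removed, other than in an alternative. Classes were named from marker lists. A marker was detected if seen in 25% of a cluster's cells and raised above the median cluster. The list with most of a cluster's leading genes was taken if 60% of it was detected. Otherwise the list whose markers scored highest on average was taken. Clusters with fewer than 3 detected markers of that list were among those left unnamed. Counts were summed per library and class (at least 10 cells) and tested with edgeR 4.0.16 in R 4.3.3 (quasi-likelihood, TMM factors, filterByExpr), with all groups in a single fit and Benjamini-Hochberg adjustment over all genes. Between classes, and for the difference of effects, the library was a block. The test was checked on simulated counts with 2-fold changes. Over 26 comparisons it recovered 33.0 to 100.0% of the changed genes, and 1.45 to 8.23% of its calls were false. Recovery was lowest for the difference of effects from day 0 to day 3 (33.0%) and for macrophage-like against dendritic cells (34.5%).

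The alternatives were DESeq2 1.42.0, RLE factors, no filter on low counts, Leiden resolution 2, removal of the top 3.9% of doublet scores, all genes allowed as variable genes, replicates 1 to 3 only, a replicate block and leaving out each library. The 9 genes and all lists were chosen with earlier results of these data known. All 9 were named. Of the 61 pathway genes, up to 2 per direction and comparison could be named: those with the largest called changes, at least 10 CPM in the higher group and no overlap between the groups. Since 3′ counts were used, levels were not compared between genes. The floor of 3 counts covers counting error only. Genotype was not analysed here.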

Additional observations from a re-analysis of the deposited data

Results flagged for a closer look

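In 16 of 144 groups of 4 libraries, the highest or lowest library lay apart from the others by Dixon's criterion at the 95% level, where chance gives about 1 in 20. In the whole site these were Tnfrsf1b in p7N3 replicate 1 (40.92 CPM, highest), Tlr4 in day 7 replicate 1 (10.08, highest), Nfkbia in day 0 replicate 4 (413.2, lowest), Nfkbiz in day 21 replicate 4 (66.98, lowest) and Tnfaip3 in day 7 replicate 2 (27.04, lowest). In macrophage-like cells they were Tnfrsf1a in day 0 replicate 1 (217.9 CPM, highest), Tlr4 in day 7 replicate 3 (14.0, lowest), and Cd14 (863.0) and Nfkbia (927.5) in p7N3 replicate 4, both highest. In stromal-like cells they were Tnf in day 21 replicate 1 (3.678 CPM), Tlr4 in day 0 replicate 1 (22.11), Cd14 in day 21 replicate 2 (8.501) and Cd14 in p7N3 replicate 3 (41.15), all highest. In endothelial-like cells they were Tnfrsf1b in p7N3 replicate 2 (19.26 CPM, lowest), Tlr2 in day 0 replicate 2 (7.926, highest) and Nfkbia in p7N3 replicate 4 (1179 CPM, highest).

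The change from day 0 to day 3 differed between macrophage-like and stromal-like cells, by edgeR's test of the interaction, for Tnf (-2.839 on the log2 scale), Tlr2 (-0.86), Tlr4 (1.135), Cd14 (-2.514), Nfkbia (0.702) and Nfkbiz (-0.658). Those of Tlr4 and Nfkbia were not called with DESeq2 or with RLE factors.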

How the results depend on the processing

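Over all alternatives 5832 log2 fold changes were recomputed. Of these, 5652 kept their direction and side of the threshold, or were uncalled in both, 134 lost a call, 46 gained a call and none that was called changed direction; 141 that were not called changed sign. Leaving out a library ended 92 of 2356 calls, and keeping replicates 1 to 3 only ended 17 of 140. Apart from the difference of effects, the counts of called genes that moved by over 1.5 times were those at day 21. With replicates 1 to 3 only, the number of the 9 genes called was 2 (5 with all libraries) in macrophage-like cells from day 7 to day 21, 1 (4) in stromal-like cells at day 21 against day 0, and 4 (8) in the whole site from day 7 to day 21. With no filter on low counts it was 1 (3) in the whole site at day 21 against day 0. Leaving out each library, it ranged from 1 to 3 there (1 without day 0 replicate 1, day 0 replicate 2 or day 21 replicate 4), from 5 to 8 in the whole site from day 7 to day 21 (5 without day 21 replicate 4), from 2 to 4 in stromal-like cells at day 21 against day 0 (2 without day 0 replicate 1, day 0 replicate 3 or day 21 replicate 4), and from 3 to 6 for the difference of effects at day 3 (3 without day 0 replicate 1). Fewer libraries or more genes tested are part of how these alternatives are built; the cause of each loss was not tested.

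Deviations of same-numbered libraries from group means had pair correlations from -0.204 to 0.331 over the whole site, macrophage-like and stromal-like cells. The highest was among the replicate 4 libraries of stromal-like cells. Such correlations cannot show whether same-numbered libraries were prepared or run together. With the replicate number as a replicate block, 3 of 180 fold changes lost a call and 2 gained one; the counts were, for example, 4 in place of 5 in macrophage-like cells from day 7 to day 21 and 9 in place of 8 in stromal-like cells from day 3 to day 7. Depth was lowest at day 0, and day 0 macrophage-like sums held 1372765 UMIs in all against 41741758 at day 3, which limits low genes such as Tlr4. Over all genes, the number called for p7N3 against day 7 varied most: 1 in the whole site (155 with DESeq2, 0 with replicates 1 to 3 only or with the block), 2 in macrophage-like cells (26 with DESeq2, 146 with no filter, 11 with replicates 1 to 3 only, 7 with the block), 8 in stromal-like cells (75 with DESeq2, 3 with replicates 1 to 3 only) and 6 for the difference of effects (0 with DESeq2, 124 with no filter, 11 at Leiden resolution 2, 1 with all genes allowed as variable genes). Against granulocyte-like cells 2702 genes were called in macrophage-like cells (1637 with DESeq2, 1781 at Leiden resolution 2). At day 21 against day 0, replicates 1 to 3 alone gave 1476 in place of 2334 in macrophage-like cells and 1807 in place of 3004 in endothelial-like cells. No comparison of days could be made for granulocyte-like cells.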
